A study of Sus scrofa domesticus with 150 samples.

Results

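S100B, MBP, SOX10, NGFR and L1CAM are symbols commonly used as markers of Schwann cells and of nerve repair. Their rows were taken from a gene count table of healing pig skin by symbol alone and followed through all 29 combinations of day and location. The 5 symbols filled 6 of the 30461 rows of the table, since S100B had a pair of rows, and 26905 rows held at least 1 count. RNA was sequenced from 150 skin samples of 6 female Yorkshire-mix domestic pigs, each carrying full-thickness excisional wounds that were dressed with Telfa Clear and Tegaderm and otherwise left untreated. The control samples were the skin excised at wounding, 1 per pig (day 0, n = 6). They were the entire excised piece and the later samples were biopsies, so that day 0 and wound samples also differ in how they were taken. Each of 72 wounds then gave 1 biopsy of its edge and 1 of its center and was sampled once, with 6 wounds (2 in each of 3 pigs) on each of 10 days up to day 13 (daily from day 1 to day 7, then days 9, 11 and 13), and 3 wounds (1 in each of 3 pigs) on days 15, 16, 19 and 21. Pigs 1323, 1324 and 1325 were sampled on days 1, 3, 5, 7, 11, 15 and 21, and pigs 1326, 1327 and 1328 on the other days, so that neighbouring days mostly differ in their animals and day and animal set cannot be told apart. A biopsy is whole tissue, and fewer cells of a type and less RNA per cell cannot be told apart in it.

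Schwann cells wrap the axons of peripheral nerves, either in a myelin sheath or, around thin fibres, without one. SOX10 is the transcription factor that sets and keeps their identity, and it is also made in melanocytes and in the secretory cells of some glands. MBP, myelin basic protein, compacts the myelin membrane, and the same gene also gives the golli transcripts that are found outside myelin, among other places in immune cells. S100B is a small calcium-binding protein used to stain Schwann cells. After an axon is cut, Schwann cells switch off myelin genes, switch on NGFR, the p75 receptor that binds the neurotrophins, and present adhesion molecules such as L1CAM on which axons regrow. In skin, NGFR and L1CAM are not limited to nerves.

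The files place each row on a contig of the assembly they used, whose name is not given in the sources used here. MBP (ENSSSCG00025024493) lay on the plus strand of contig LUXX01050605.1 from 1223326 to 1340773. NGFR (ENSSSCG00025075635) lay on the minus strand of LUXX01047340.1 from 808760 to 829717, and L1CAM (ENSSSCG00025038938) on the minus strand of LUXX01059036.1 from 476175 to 498669. SOX10 (ENSSSCG00025029557) lay on the minus strand of LUXX01043504.1 from 297667 to 307882, wholly inside POLR2F on the plus strand, a subunit gene of RNA polymerase with a mean count of 541. Whether strand was used in counting is not stated, so that reads from SOX10 and POLR2F may not be told apart. The SOX10 row followed POLR2F weakly, with r = -0.12 over the 29 state means and 0.15 over the 150 deviations from them. These 4 rows were annotated as protein-coding, while both S100B rows, which overlapped each other on opposite strands of LUXX01041391.1, were annotated as long non-coding RNA and carried S100B through a protein match (ENSSSCG00025022625, 1603107 to 1608827, plus strand, and ENSSSCG00025022559, 1603062 to 1610619, minus strand).

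Total counts ran from 13133379 to 24895572 per sample, with medians of 18269295 on day 0, 17455384 at the edge and 17883095 in the center. Values are CPM, counts scaled to the total count of the sample, and 3 counts, the limit that a count of 0 allows, correspond to 0.121 CPM in the deepest and 0.228 CPM in the shallowest sample, for counting error only. For 6 samples the mean correlation with their replicates lay apart from the others of the state, and 15 center and 6 edge samples held more skeletal muscle transcripts than any day 0 sample. Calls that were lost without them are named where they occur.

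The rows named S100B were near the limit of detection in every state. Since both are annotated as non-coding and carry the symbol by a protein match, and the strand setting is not stated, it is not known whether either counts the messenger RNA of S100B, and their values are no measure of how much of it the skin made. The plus-strand row held 408 counts over the 150 samples, between 0 and 15 per sample with a median of 2, was at 0 in 39 samples and above 3 counts in 50. The minus-strand row held 45 counts in all and was at 0 in 121 samples. On day 0 the plus-strand row had a median of 1.5 counts with a highest sample of 15, and in the day 1 center it ranged from 0 to 2. Center samples of day 11 ranged from 4 to 9 counts and those of day 19 from 6 to 8, the only states in which every sample was above 3 counts. The edge samples of these days held 0 to 4 and 2 to 4 counts, and in CPM the 2 locations did not overlap, with the center above on day 11, as held for 10.1% of all genes, and on day 19, as held for 6.76%. Over all days the center held more in 45 of 72 wounds and the edge in 21, but the row did not pass the filter on low counts in the comparison of edge and center and was not tested there. In the fit of all 150 samples the plus-strand row was called lower in the day 1 center than on day 0 (edgeR adjusted p = 0.046) and higher in the center late than early (edgeR adjusted p = 0.016). The call of day 1 was lost without pig 1324, which held the sample of 15 counts (edgeR adjusted p = 0.575), and also without pig 1323 or 1325 (edgeR adjusted p = 0.063 and 0.12), without TMM normalization, without the filter and with the wounds of a pig summed (edgeR adjusted p = 0.062, 0.076 and 0.078), and no fold is given because the groups lay at or near 3 counts. The call between late and early days was lost without pig 1325 or pig 1328 (edgeR adjusted p = 0.11 and 0.087). The plus-strand row was called higher in the center on days 16 and 19 only with the animal as a block (edgeR adjusted p = 0.0499 and 0.0445), and likewise lower at the edge on day 3 (edgeR adjusted p = 0.043). Differences in these rows smaller than these were not detectable at this depth, and the results below rest on the other 4 genes.

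Compared per length of the row, so that genes can be set side by side, the mean level over all samples was 6.37 CPM per kilobase for MBP, 5.56 for NGFR, 4.48 for L1CAM and 0.693 for SOX10, against 0.0395 for the plus-strand row of S100B. On day 0, MBP had 92.8 ± 15.5 CPM (SD, n = 6), NGFR 20.7 ± 6.16, L1CAM 9.69 ± 3.39 and SOX10 7.72 ± 1.96. The 4 genes then took different courses. SOX10 fell in the center and less at the edge, NGFR rose and then fell in the center, L1CAM rose at both locations, and MBP fell in the last days. When the 29 states were put in order of their mean, none of the 28 neighbouring pairs had ranges that did not overlap, for any of the 4 genes, so that only states far apart in the order can be separated.

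**Figure D1:**
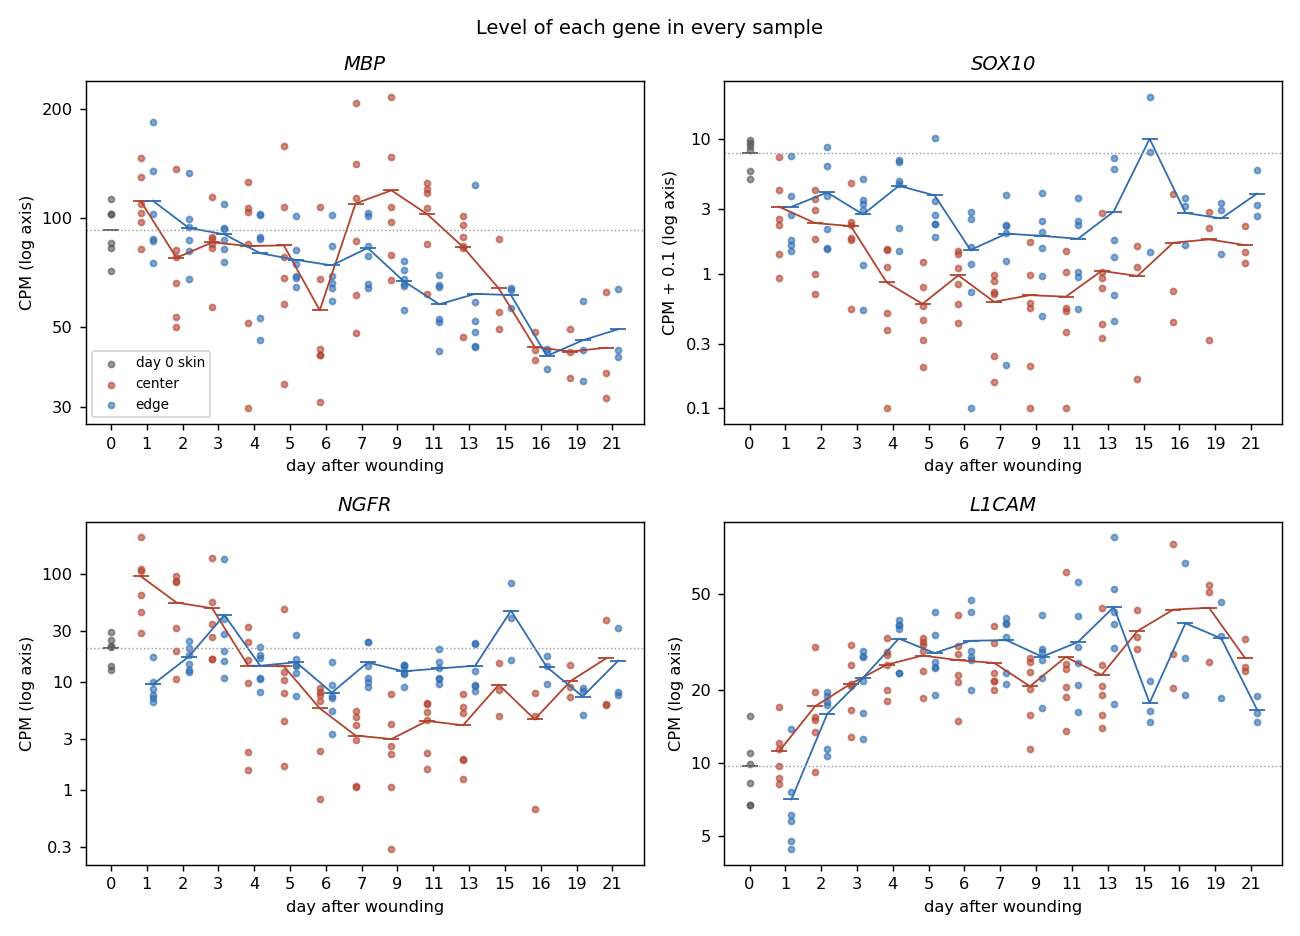
CPM on a log axis (for SOX10, CPM + 0.1) of each sample against the day after wounding, with day 0 skin in grey, center in red and edge in blue, points for samples and lines through state means, and a dotted line at the day 0 mean. NGFR is highest in the day 1 center (mean 95.8 CPM) and lowest in the day 9 center (2.98 CPM), and SOX10 is lowest in the day 5 center (0.497 CPM).

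Against unwounded skin, 39 of the 70 tests of these rows in the center passed (5 rows on 14 days, with 15 higher and 24 lower), where 55.8% of all gene and day pairs passed, 28.3% higher and 27.5% lower. At the edge 17 of 70 passed (10 higher and 7 lower), where 34.5% of all pairs passed, 19.9% higher and 14.6% lower. In this fit the share of tests called was near that of all genes in the center and under it at the edge. The edge calls depended on the samples in the fit. With only the states compared, where the S100B rows did not pass the filter, 33 of 56 tests passed at the edge (11 higher and 22 lower), where 43.1% of all pairs passed, 22.5% higher and 20.7% lower. All these contrasts share the same 6 day 0 samples, and were tested with edgeR's quasi-likelihood test in 1 fit of all 150 samples, with Benjamini-Hochberg adjustment over the 17916 genes tested.

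**Figure D2:**
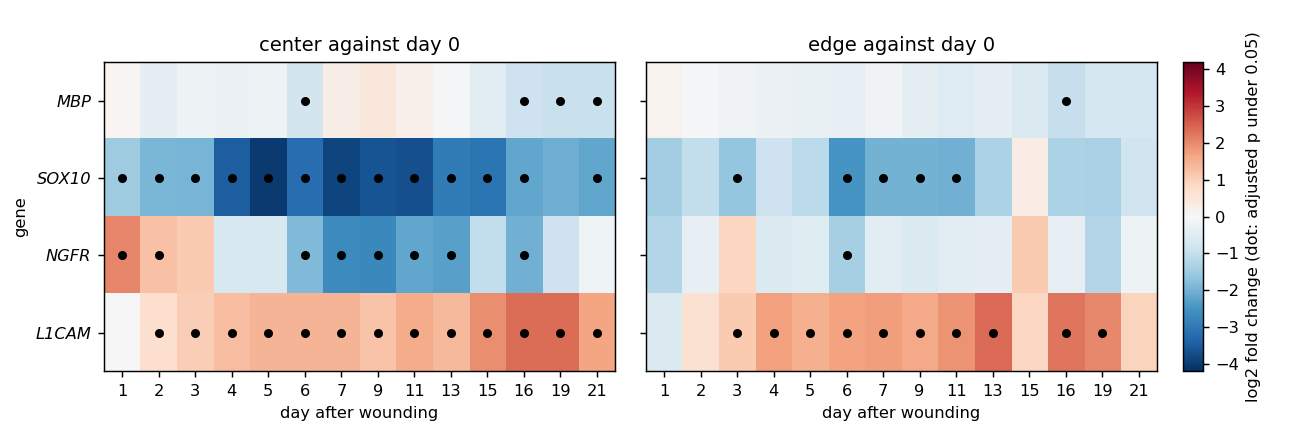
Log2 fold change against day 0 (color, scale at right) of each gene and day, for the center on the left and the edge on the right, with a dot where the edgeR adjusted p was under 0.05. SOX10 carries 13 dots in the center and 5 at the edge, all lower, and L1CAM 13 and 10, all higher.

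SOX10, the identity factor, was lower in the wound than in unwounded skin. On day 0 its samples ranged from 4.89 to 9.67 CPM with a median of 8.41, or 93 to 207 counts. In the day 5 center they ranged from 0.104 to 1.12 CPM with a median of 0.418, or 2 to 21 counts. The groups did not overlap, and the log2 fold change was -4.03 ± 0.75 (SE, edgeR adjusted p = 1.25e-06). The center of day 4 ranged from 0 to 1.43 CPM and that of day 7 from 0.0565 to 0.877 CPM, also wholly below day 0. SOX10 passed as lower in the center on 13 of 14 days, all except day 19 (log2 fold change -2.04, edgeR adjusted p = 0.058). The calls of day 1 and day 21 were lost with the animal as a block (edgeR adjusted p = 0.14 and 0.075). Single pigs decided 4 of the 13 calls. Day 1 was lost without pig 1324, 1325, 1326 or 1328 (largest edgeR adjusted p = 0.18), day 3 without pig 1325 (edgeR adjusted p = 0.058), day 16 without pig 1325, 1326 or 1327 (largest edgeR adjusted p = 0.17), and day 21 without any pig but 1327 (largest edgeR adjusted p = 0.18). Day 1 was also lost without the samples with muscle transcripts (edgeR adjusted p = 0.17), without TMM normalization (edgeR adjusted p = 0.072) and with the wounds of a pig summed (edgeR adjusted p = 0.053). Without the filter on low counts, days 1, 16 and 21 were lost (edgeR adjusted p = 0.057, 0.053 and 0.067). Days 2, 4, 5, 6, 7, 9, 11, 13 and 15 passed under every alternative that was run.

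At the edge, SOX10 stayed closer to unwounded skin. It passed as lower on days 3, 6, 7, 9 and 11, with log2 fold changes between -1.64 and -2.48, and the call of day 3 was lost with the animal as a block (edgeR adjusted p = 0.096), without pig 1324 or 1325 and without the samples with muscle transcripts (edgeR adjusted p = 0.13, 0.079 and 0.068), and without TMM normalization (edgeR adjusted p = 0.052). With only the states compared in the fit it passed on 10 days, and with DESeq2 on 6. The call of day 7 was lost without pig 1323 (edgeR adjusted p = 0.083), that of day 9 without pig 1326 or 1327 (edgeR adjusted p = 0.063 and 0.093) and that of day 11 without pig 1323 or 1325 (edgeR adjusted p = 0.052 and 0.12). Its day 6 edge samples ranged from 0 to 2.78 CPM with a median of 1.27, below every day 0 sample. Its highest state of all was the day 15 edge, where the 3 samples had 1.35, 7.89 and 20.4 CPM, so that 1 pig was below and 1 above the whole range of day 0.

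Within wounds, the edge had more SOX10 than the center in 57 of 72. On day 4 the center samples lay between 0 and 1.43 CPM and the edge samples between 1.37 and 6.90 CPM, with the edge higher in 6 of 6 wounds (log2 fold change 2.59 ± 0.63, SE, edgeR adjusted p = 0.0084). On day 5 the edge samples ranged from 1.77 to 9.97 CPM with a median of 2.43, all above the 6 center samples (log2 fold change 2.90 ± 0.56, SE, edgeR adjusted p = 0.0013). Both calls held under every alternative that was run. The call of day 7 (log2 fold change 1.87, edgeR adjusted p = 0.040) was lost with the wound as a block (edgeR adjusted p = 0.071), when each of 5 wounds was left out in turn (wounds 1, 3, 4, 5 and 6 of the day, largest edgeR adjusted p = 0.12) and without the samples with muscle transcripts (edgeR adjusted p = 0.051), without the filter on low counts (edgeR adjusted p = 0.059) and with the wounds of a pig summed (edgeR adjusted p = 0.055). With the wound as a block, days 11 and 15 passed as well (edgeR adjusted p = 0.042 and 0.037).

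Markers of hair follicles and skin glands moved together with SOX10. All 7 hair follicle genes tested and 6 of the 7 gland genes tested were lower in the day 1 and day 7 center than on day 0, where 31% and 32.6% of all genes were lower. The summed level of the gland list, whose 8 symbols include the keratins KRT7 and KRT18, was 129 to 335 CPM on day 0, 38.5 to 53.6 CPM in the day 5 center and 78.3 to 216 CPM at the day 5 edge. The summed hair follicle list was 43.2 to 15094 CPM on day 0, 0.290 to 8.21 CPM in the day 5 center and 5.14 to 3578 CPM at the day 5 edge, with none of its 7 measured genes at 0 in all samples of these states. Between edge and center, 5 of the 6 gland genes tested were higher at the edge on day 4 and on day 5, as were 6 of 7 basal keratinocyte genes, where 16.4% and 20.8% of all genes were higher. SOX10 followed KRT7, a gland keratin, with r = 0.75 over 29 state means and 0.59 over 150 deviations. The part of these tissues in the course of SOX10 was not tested.

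Genes used to mark melanocytes, the other cell type of skin known for SOX10, did not follow the same course as a list. Of 9 tested, 4 were higher and 4 lower in the day 1 center than on day 0, and 5 higher and 3 lower in the day 7 center. Of all genes 29.7% and 31% were higher and 31% and 32.6% lower on these days, so that the 3 of 9 lower on day 7 were near the share of all genes. TYR, which makes the first step of melanin, was at 0 in all 150 samples, and MLANA was at 0 in all day 0 samples and averaged 6.26 CPM in the center of days 9 to 13, where SOX10 averaged 0.705 CPM. Several other genes of the list averaged only 0.02 to 0.49 CPM over all samples, so that the list is a limited measure of melanocytes. EDNRB, KIT and MITF, the most abundant measured genes of the list, had log2 fold changes of 3.45, 1.34 and -0.76 in the day 7 center, all past the edgeR threshold. Endothelial genes, 10 of 10, were higher in the day 1 and the day 7 center, and the part of other cell types in these values was not tested. The correlation of SOX10 with MITF was 0.45 over 29 state means and 0.43 over 150 deviations. With 6 genes of the list its median correlation was -0.59 and 0.06. The part of melanocytes in the course of SOX10 was not tested.

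MBP, the myelin protein gene, had the narrowest range of the 4 genes, with a highest state mean 2.88 times the lowest, against 6.27 times for L1CAM, 19.9 times for SOX10 and 32.2 times for NGFR. Its samples ranged from 71.5 to 113 CPM on day 0 and from 82.2 to 147 CPM in the day 1 center. In the center it passed as lower than day 0 on days 6, 16, 19 and 21, with log2 fold changes of -0.77, -0.88, -0.93 and -0.92. The samples of day 16 had 40.6, 43.0 and 48.4 CPM and those of day 19 had 36.1, 42.5 and 49.3 CPM, all below the lowest day 0 sample. With the animal as a block, days 16 and 19 no longer passed (edgeR adjusted p = 0.051 and 0.053). Day 16 was also lost without pig 1328 (edgeR adjusted p = 0.12), day 19 without pig 1327 or 1328 (edgeR adjusted p = 0.10 and 0.093) and day 21 without pig 1323 or 1325 (edgeR adjusted p = 0.080 and 0.20). At the edge only day 16 passed (log2 fold change -0.95, edgeR adjusted p = 0.027), with samples of 38.2, 42.8 and 43.4 CPM, and not with the block (edgeR adjusted p = 0.077) or without pig 1325, 1326, 1327 or 1328 (edgeR adjusted p from 0.051 to 0.15). With only the states compared in the fit MBP passed as lower at the edge on 8 days, with the wounds of a pig summed on 5, and with DESeq2 on 2.

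The fall of MBP over time was called at both locations. Late samples (days 15 to 21) lay below early ones (days 1 to 3) by a log2 fold change of -0.63 ± 0.17 in the center (SE, edgeR adjusted p = 0.00062), with sample ranges of 31.7 to 87.3 CPM late and 50.1 to 147 CPM early. At the edge it was -0.74 ± 0.17 (SE, edgeR adjusted p = 0.00012), with 35.4 to 64.1 CPM late and 67.9 to 184 CPM early, so that the edge ranges did not overlap. In the center 4 of the 5 tested rows passed between the periods, where 58.7% of all genes passed, and at the edge 2 of 5, where 44.7% passed. Most neutrophil and monocyte genes fell in the same contrasts, with 5 of 7 lower and 2 higher in the center and 7 of 7 lower at the edge (median log2 fold changes -1.53 and -2.05), where 31.4% and 24.5% of all genes were lower. The summed level of the list did not fall in the center, with medians of 706 CPM early and 810 CPM late. At the edge its medians were 1166 CPM early and 165 CPM late. The median correlation of MBP with these 7 genes was 0.51 over state means and 0.31 over deviations, and with 6 T cell genes 0.30 and 0.40. None of the 6 T cell genes passed in the center and 1 was lower at the edge. The part of these cells in the fall of MBP was not tested.

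Between edge and center, MBP was lower at the edge on days 9 and 11. On day 11 the edge samples ranged from 42.9 to 69.5 CPM with a median of 58.4 and the center samples from 61.6 to 125 CPM with a median of 112, lower at the edge in 6 of 6 wounds though the ranges overlapped (log2 fold change -0.76 ± 0.16, SE, edgeR adjusted p = 0.0026). On day 9 the edge samples ranged from 55.7 to 75.9 CPM and the center samples from 67.3 to 217 CPM, lower at the edge in 5 of 6 wounds (log2 fold change -0.83 ± 0.25, SE, edgeR adjusted p = 0.022). Without wound E of pig 1326 the day 9 value was -0.53 and no longer passed (edgeR adjusted p = 0.070). Of 7 neutrophil and monocyte genes tested, 2 were higher and 5 lower at the edge on day 9, and 3 were lower and none higher on day 11, where 13.9% and 22.9% of all genes were lower. The summed level of the list, whose most abundant genes were S100A9 and S100A8, went the other way on day 9, with 584 to 1039 CPM in the center and 1690 to 4661 CPM at the edge. The part of these cells in the level of MBP was not tested.

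On days 1 and 7 the other myelin genes took another course in the center than MBP. Of the 15 myelin genes tested, 11 were lower and 2 higher in the day 1 center than on day 0, with a median log2 fold change of -2.51 against -0.04 for all genes, of which 31% were lower and 29.7% higher. Hair follicle (7 of 7), gland (6 of 7) and basal and suprabasal keratinocyte genes (7 of 7 and 6 of 6) were lower in the same contrast, and their part in the fall of the myelin genes was not tested. In the day 7 center 11 were lower and 1 higher, with a median of -3.52, where 32.6% of all genes were lower and 31% higher, while MBP had 47.9 to 208 CPM there against 71.5 to 113 CPM on day 0. In the day 21 center 8 were lower and 1 higher, with a median of -1.72, where 16% of all genes were lower and 19.2% higher. MBP was called lower on day 21 as well, though not without pig 1323 or 1325. The most abundant genes of the myelin list went in both directions in the day 7 center, with CNP, an enzyme of myelin and many other cells, at a log2 fold change of 1.16, PMP22 at -0.47 and POU3F1, a transcription factor of Schwann cells that keratinocytes also make, at -7.62, all past the threshold, and EGR2, the myelination factor, at -0.40.

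Among the 5 genes whose state means were most like those of MBP were PTK2B, VAT1, RNF149 and RASGEF1B (r from 0.89 to 0.91, n = 29). Those of the deviations were ATP6AP1, PLEKHB2, LAT2, RPS6KA1 and RASGEF1B (r between 0.76 and 0.77, n = 150). All samples share their libraries and composition, and these values are descriptions.

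Other genes of Schwann cell identity fell in the center on day 7, and on day 1 their share called lower was near that of all genes. Of 14 tested, 5 were lower and 2 higher in the day 1 center than on day 0 (31% and 29.7% of all genes), 8 lower and 1 higher in the day 7 center (32.6% and 31%), and 1 lower and 1 higher in the day 21 center, where 16% of all genes were lower and 19.2% higher. ERBB3, the receptor through which neuregulin acts on Schwann cells and which keratinocytes also carry, had log2 fold changes of -3.62 on day 1 and -5.49 on day 7, and was higher at the edge than in the center on day 7 by 4.11. TFAP2A, a factor of the neural crest and of keratinocytes, had -6.82 and CADM4, an adhesion protein of Schwann cells, -3.60 in the day 7 center, while GPM6B, a membrane glycoprotein, was higher at 1.69. Basal and suprabasal keratinocyte genes, 7 of 7 and 6 of 6, were lower in the day 1 and the day 7 center. Their part in the fall of the identity genes was not tested. CDH19, a cadherin used to mark Schwann cells and named here after its values had been seen, averaged 1.17 CPM on day 0 and 0.314 CPM in the center of days 9 to 13. Its correlation with SOX10 was 0.66 over state means and 0.65 over deviations, with NGFR 0.64 and 0.55, with MBP -0.12 and -0.10 and with L1CAM -0.42 and -0.22. SOX10 and NGFR thus followed this marker, MBP and L1CAM did not, and the S100B rows were too low to be checked.

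**Figure D3:**
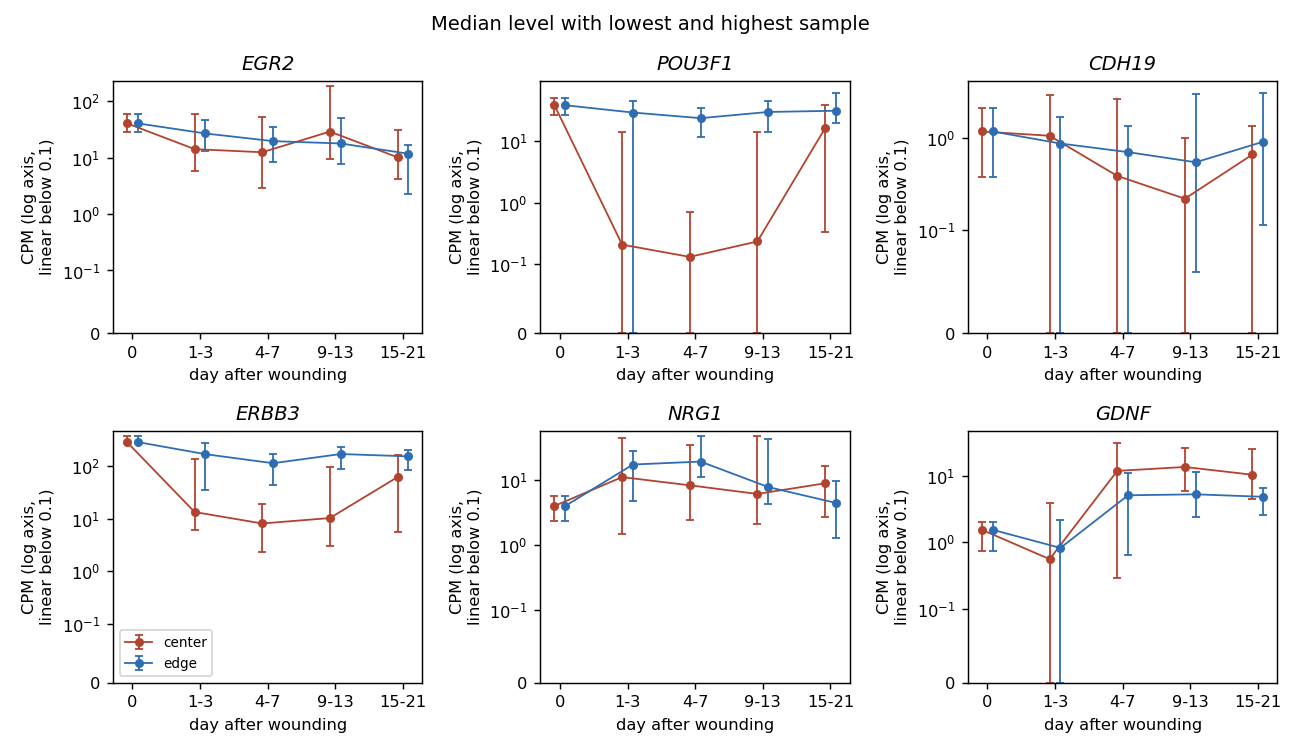
Median CPM (points) with the lowest and highest sample (bars) of EGR2, POU3F1, CDH19, ERBB3, NRG1 and GDNF on day 0 and in 4 periods after wounding, center in red and edge in blue, on an axis that is logarithmic above 0.1 and linear below. The medians of EGR2, POU3F1, CDH19 and ERBB3 lie below day 0 in every period at both locations, that of NRG1 lies above it in every period, and that of GDNF lies above it from day 4 on.

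NGFR, the neurotrophin receptor of repair Schwann cells, was higher in the center than at the edge on days 1 and 2 and higher at the edge from day 7 to day 13. On day 0 it ranged from 13.0 to 29.2 CPM with a median of 21.5. In the day 1 center it ranged from 28.3 to 219 CPM with a median of 85.0, and at the day 1 edge from 6.60 to 17.0 CPM with a median of 8.16. The samples of the locations did not overlap, as held with the center above for 12.3% of all genes on that day, and the edge was lower in 6 of 6 wounds by a log2 fold change of -3.32 ± 0.48 (SE, edgeR adjusted p = 0.00029). On day 2 the difference was -1.59 ± 0.45 (SE, edgeR adjusted p = 0.015), with 10.8 to 95.7 CPM in the center and 12.4 to 24.2 CPM at the edge, and it was lost without wound A of pig 1327 (edgeR adjusted p = 0.071).

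From day 7 to day 13 the order was turned. On day 7 the center samples ranged from 1.07 to 5.40 CPM and the edge samples from 9.01 to 23.7 CPM (log2 fold change 2.25 ± 0.42, SE, edgeR adjusted p = 0.0011). On day 9 they ranged from 0.285 to 7.69 CPM and from 9.10 to 14.3 CPM (log2 fold change 2.11 ± 0.54, SE, edgeR adjusted p = 0.0099). Days 11 and 13 gave 1.70 ± 0.33 and 1.94 ± 0.46 (SE, edgeR adjusted p = 0.0018 and 0.0073). These 4 calls and that of day 1 held under every alternative that was run.

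On day 15 the center samples had 4.91, 8.51 and 15.0 CPM and the edge samples 16.1, 39.6 and 82.0 CPM, and on day 16 they had 0.672, 4.91 and 8.01 CPM and 9.66, 14.2 and 17.6 CPM. With 3 wounds each, these differences of 2.17 and 1.67 on the log2 scale did not pass (edgeR adjusted p = 0.069 and 0.19), though the samples of the locations did not overlap. On days 7, 9, 11, 13, 15 and 16 the lowest edge sample was above the highest center sample, which held for 10.7% of all gene and day pairs. On day 1 the reverse was seen, as for 12.3% of all genes on that day and 7.6% of all gene and day pairs. On days 19 and 21 the differences were -0.38 and -0.03 and the samples overlapped.

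Over the 4 tested genes, 12 of 56 tests between edge and center passed (7 higher and 5 lower at the edge), where 23.5% of all gene and day pairs passed, 12.6% higher and 10.9% lower. With the wound as a block 14 passed (10 higher and 4 lower).

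**Figure D4:**
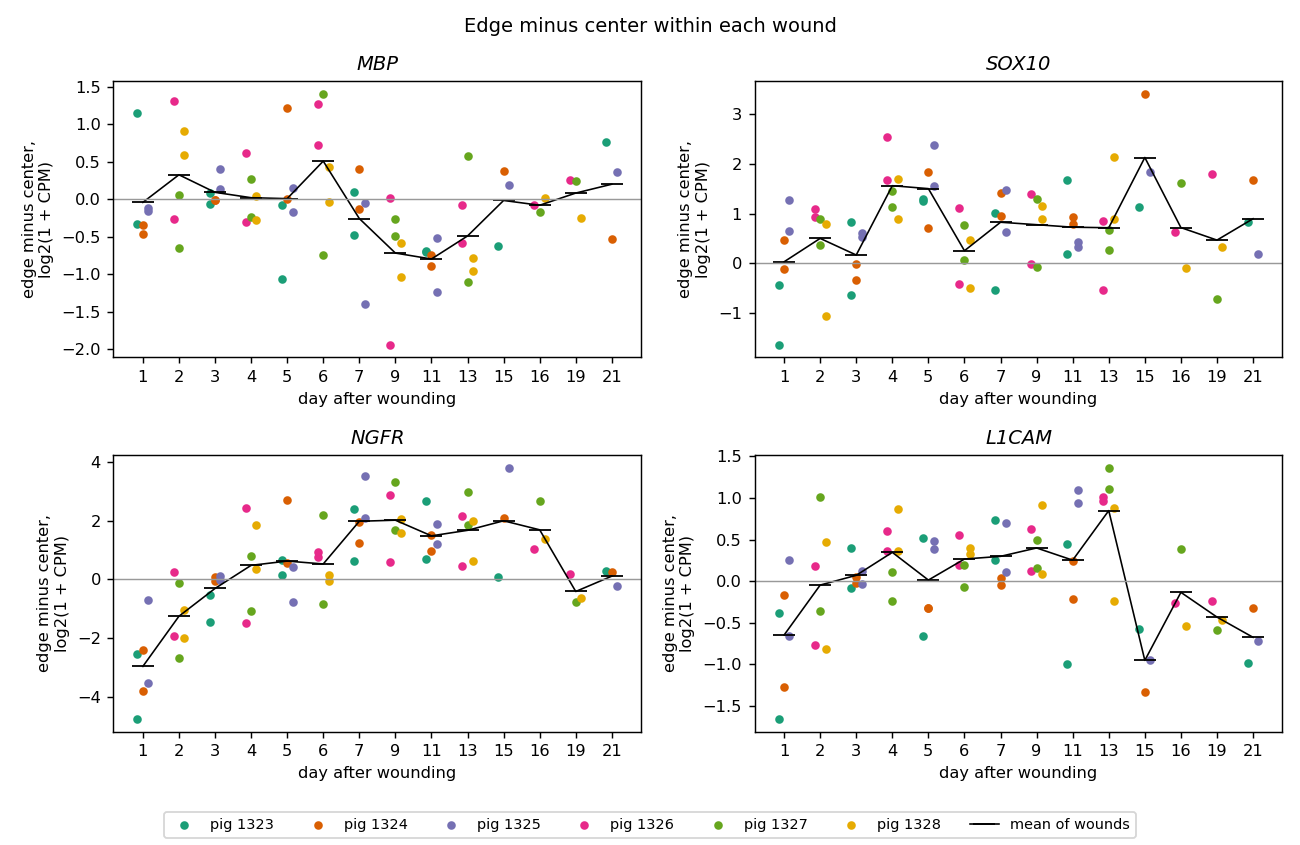
Edge minus center of log2(1 + CPM) within each wound against the day after wounding, with points colored by pig and a black line through the mean of the wounds. NGFR lies below 0 in every wound of day 1 and above 0 in every wound of days 7, 9, 11, 13, 15 and 16, and SOX10 lies above 0 in 57 of 72 wounds.

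Against day 0, NGFR was higher in the center on days 1 and 2, by log2 fold changes of 2.05 ± 0.56 and 1.24 ± 0.55 (SE, edgeR adjusted p = 0.00094 and 0.043), the second not with the animal as a block (edgeR adjusted p = 0.065) without the filter on low counts (edgeR adjusted p = 0.067), or without pig 1324, 1326, 1327 or 1328 (largest edgeR adjusted p = 0.11). It was lower in the center on days 6, 7, 9, 11, 13 and 16, most on day 9 with -2.71 ± 0.59 (SE, edgeR adjusted p = 3.3e-05). The call of day 16 was lost without pig 1327 or 1328 (edgeR adjusted p = 0.14 and 0.083). The 6 center samples of day 9 and those of days 7, 11 and 13 all lay below the lowest day 0 sample. At the edge only day 6 passed (log2 fold change -1.40, edgeR adjusted p = 0.028), and not with the block (edgeR adjusted p = 0.075) or without pig 1323, 1327 or 1328 (largest edgeR adjusted p = 0.11). With only the states compared in the fit NGFR passed as lower at the edge on 4 days, and with DESeq2 on 2.

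The difference between the locations itself changed over time for NGFR. The edge minus center log2 fold change was higher late (days 15 to 21) than early (days 1 to 3) by 2.54 ± 0.51 (SE, edgeR adjusted p = 3.6e-05). In the center NGFR fell between the periods by 2.48 on the log2 scale (edgeR adjusted p = 1.8e-08), from a median of 49.9 CPM with a range of 10.8 to 219 to a median of 7.65 with a range of 0.672 to 37.4. At the edge the change was 0.06 ± 0.35 (SE, edgeR adjusted p = 0.92), with medians of 15.2 and 11.9 CPM. NGFR was the only one of the 5 rows tested whose difference between locations changed past the threshold, where 28.3% of all genes did so, and SOX10 had a change of 1.14 ± 0.60 (SE, edgeR adjusted p = 0.15).

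Adipocyte genes moved with NGFR in the first days. All 7 measured genes of the list, which include ADIPOQ and PLIN1, were higher in the day 1 center than on day 0 and lower at the edge than in the center on days 1 and 2, where 22.6% and 17.8% of all genes were lower. All 7 were lower late than early in the center, where 31.4% of all genes were lower, and all 7 passed in the change of the difference between locations. Their summed level was 151 to 1771 CPM on day 0, 5540 to 19147 CPM in the day 1 center and 42.6 to 1837 CPM at the day 1 edge, and none was at 0 in all samples of these states. On days 7, 9 and 13, when NGFR was higher at the edge, no adipocyte gene passed, where 37.4%, 31.6% and 28.4% of all genes passed, and on day 11 it was 1 in each direction. On day 7 the summed level was 394 to 1611 CPM in the center and 198 to 3465 CPM at the edge. NGFR followed PLIN1 with r = 0.69 over 29 state means and 0.57 over 150 deviations. In the day 1 center, 10 of 10 endothelial and 7 of 8 skeletal muscle genes were also higher than on day 0, where 29.7% of all genes were higher. The part of these cell types in the level of NGFR was not tested.

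Genes for the ligands and the other receptors of the same pathways gave a mixed picture. NRG1, the neuregulin that drives Schwann cells through ERBB3, was higher by 1.92 and 1.43 in the day 1 and day 7 center. GDNF, a survival factor made by repair Schwann cells, was lower on day 1 by -2.30 and higher on day 7 by 3.75 and on day 21 by 2.62. CNTF had 0.21, -0.09 and 0.06 on these days and did not pass. Of the 8 ligand genes tested, 2 were higher and 5 lower in the day 1 center, and 3 and 4 in the day 7 center, where 29.7% and 31% of all genes were higher and 31% and 32.6% lower on these days. Of the 11 receptor genes, 2 were higher and 5 lower in the day 1 center, and 1 higher and 10 lower in the day 7 center, with a median log2 fold change of -2.66 against -0.03 for all genes. EGFR, ERBB2, ERBB3 and SORT1, the most abundant receptors of the list, had -3.74, -3.67, -5.49 and -0.70 in the day 7 center, all past the threshold, and basal keratinocyte genes, 7 of 7, were lower in the same contrast.

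Genes of the repair program of Schwann cells rose in part in the center. Of 10 tested, 5 were higher and 4 lower on day 1, 7 higher and 3 lower on day 7, and 4 higher and 2 lower on day 21. The shares of all genes were 29.7%, 31% and 19.2% higher and 31%, 32.6% and 16% lower on these days, so that the 3 of 10 lower on day 7 and the 2 of 10 on day 21 were near them. RUNX2, which fibroblasts also use, was higher by 2.21, 4.17 and 3.08 on these days and STMN1, a tubulin-binding protein of growing cells, by 1.38 on day 7. JUN, the central factor of the program, was lower by -1.14 on day 1 and -0.74 on day 7. ATF3, an injury-induced factor, was higher by 1.40 and 2.05.

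L1CAM, the adhesion molecule, was higher in the wound than in unwounded skin at both locations. Its samples ranged from 6.69 to 15.7 CPM with a median of 9.07 on day 0. In the day 4 center they ranged from 18.2 to 33.1 CPM with a median of 26.7, and at the day 4 edge from 23.5 to 39.0 CPM with a median of 36.6. Neither overlapped day 0, and the log2 fold changes were 1.28 ± 0.32 and 1.72 ± 0.32 (SE, edgeR adjusted p = 0.00024 and 5.8e-06). It passed as higher in the center on 13 of 14 days, all except day 1, and at the edge on every sampled day from day 3 to day 13 and on days 16 and 19.

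The highest state of L1CAM was the day 13 edge, with 17.5 to 86.2 CPM and a median of 40.0 (log2 fold change 2.38 ± 0.33, SE, edgeR adjusted p = 1.5e-09). In the center the largest change was on day 19, where the samples had 26.1, 51.1 and 54.8 CPM (log2 fold change 2.36 ± 0.37, SE, edgeR adjusted p = 7.1e-08). The day 1 edge, with 4.40 to 13.8 CPM, was its lowest state, and its range overlapped that of day 0. The day 2 call in the center (log2 fold change 0.71, edgeR adjusted p = 0.044) was lost with the animal as a block (edgeR adjusted p = 0.22) and under 11 other alternatives, among them without the samples that lay apart (edgeR adjusted p = 0.060), without those with muscle transcripts (edgeR adjusted p = 0.076) and without pig 1323, 1324, 1325, 1326 or 1328 (edgeR adjusted p from 0.074 to 0.28). With the block, days 15 and 21 passed at the edge as well (edgeR adjusted p = 0.042 and 0.011). The day 3 calls, in the center and at the edge, were lost without pig 1323 (edgeR adjusted p = 0.056 in each).

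Late samples held more L1CAM than early ones. The log2 fold change was 1.49 ± 0.20 in the center (SE, edgeR adjusted p = 1.1e-10), from 8.21 to 30.9 CPM early to 20.5 to 80.9 CPM late. At the edge it was 1.14 ± 0.20 (SE, edgeR adjusted p = 6.3e-07), from 4.40 to 29.2 CPM to 14.8 to 67.5 CPM, and the ranges of the periods overlapped at both locations.

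Between the locations L1CAM differed little in the tests by day. Only day 15 passed, with 14.9, 16.5 and 21.9 CPM at the edge and 29.7, 33.2 and 42.9 CPM in the center (log2 fold change -1.06 ± 0.25, SE, edgeR adjusted p = 0.039), and the call was lost with the wound as a block (edgeR adjusted p = 0.056) and when any of the 3 wounds was left out (edgeR adjusted p from 0.051 to 0.25), without the samples with muscle transcripts (edgeR adjusted p = 0.11), and with all samples in 1 fit (edgeR adjusted p = 0.081). With the wound as a block the edge was higher on days 4 and 13 (edgeR adjusted p = 0.039 and 0.0073), by 0.41 and 0.98 on the log2 scale. The edge was higher in 6 of 6 wounds on day 9 and in 5 of 6 on day 13. The center was higher in 3 of 3 wounds on days 15, 19 and 21. On days 15 and 21 the samples did not overlap, as held with the center above for 7.6% of all gene and day pairs. The difference in direction between these days was not tested.

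The relatives and binding partners of L1CAM went in both directions. CHL1, a member of the L1 family, averaged 91.8 CPM on day 0 and log2 fold changes of -2.51 and -4.91 in the day 1 and day 7 center, against -0.58 at the day 7 edge, which did not pass. CHL1 was named after its values had been seen. Of 12 genes of the list tested, 7 were lower and 2 higher in the day 1 center, 6 lower and 3 higher in the day 7 center, and 2 lower and 3 higher in the day 21 center. Of all genes 31%, 32.6% and 16% were lower and 29.7%, 31% and 19.2% higher on these days, so that the 3 higher on day 7 and the 2 lower on day 21 were near the shares of all genes. The summed level of the list had medians of 1469 CPM on day 0, 1865 CPM in the center of days 4 to 7 and 1971 CPM in that of days 9 to 13. ITGB1 and ITGAV, integrin subunits that bind L1CAM, were higher in the day 7 center by 2.01 and 0.79 and NRP1, a co-receptor that binds it, by 1.74, while EZR, ezrin, which links it to the cytoskeleton, was lower by -2.68. Fibroblast genes were lower on day 1 (5 of 8, with 2 higher) and higher on day 21 (6 of 8) in the center than on day 0, and their summed level there was 12410 to 74409 CPM in the early and 104677 to 181771 CPM in the late center samples, beside the rise of L1CAM. Their part in it was not tested.

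Neuronal and axonal genes were low in skin and were in part higher in the center by day 7. Of 9 tested, 2 were higher and 5 lower in the day 1 center than on day 0, 5 higher and 1 lower in the day 7 center, and 4 higher and 2 lower in the day 21 center. For all genes the shares were 29.7%, 31% and 19.2% higher and 31%, 32.6% and 16% lower, near the 2 of 9 higher on day 1 and the 2 of 9 lower on day 21. TUBB3, a neuronal tubulin that dividing cells of other types also make, averaged 2.77 CPM on day 0 and 36.5 CPM in the center of days 4 to 7, and its log2 fold changes were -1.13, 3.62 and 2.41 on days 1, 7 and 21. UCHL1, a ubiquitin hydrolase of neurons, was higher by 0.91, 3.03 and 1.76. STMN2, a protein of growing axons, had 4.47 CPM on day 0 and 11.1 CPM in the center of days 4 to 7, with a log2 fold change of 2.53 on day 7. NEFM and TAC1 were at 0 in all day 0 samples. Which cells held the transcripts of this list was not tested.

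Since the wounds of a pig are not independent animals, each pig was also reduced to 1 value per comparison, its mean of log2(1 + CPM) over wounds, and tested two-sided over the 6 pigs by an exact permutation of signs, in which the smallest possible p is 0.03125. Over the 4 genes 12 such tests were made, and the p-values are not adjusted. SOX10 was higher at the edge than in the center in 6 of 6 pigs (0.76 ± 0.23, SD, n = 6, exact p = 0.03125). NGFR was higher at the edge in 5 of 6 pigs (0.50 ± 0.34, SD, n = 6, exact p = 0.0625). This NGFR mean joins days of opposite direction, with means over wounds of -2.96 on day 1 and of 1.99 and 2.02 on days 7 and 9. MBP was lower at the edge in 5 of 6 pigs (-0.11 ± 0.10, SD, n = 6, exact p = 0.0625). L1CAM was higher there in 4 of 6 (0.06 ± 0.27, SD, n = 6, exact p = 0.594).

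Against the day 0 skin of the same pig, the center was lower in SOX10 (-2.09 ± 0.37, SD, n = 6) and in NGFR (-1.01 ± 0.39) and higher in L1CAM (1.21 ± 0.41), each in 6 of 6 pigs with an exact p = 0.03125. The NGFR mean joins days of opposite direction. On days 1 to 3 NGFR in the center was above day 0 by 1.18, in 6 of 6 pigs. On days 4 to 7, 9 to 13 and 15 to 21 its difference was -1.60, -2.26 and -1.25, below day 0 in 6 of 6 pigs each. The edge was lower in SOX10 (-1.33 ± 0.26, SD, n = 6) and higher in L1CAM (1.27 ± 0.44), again in 6 of 6 pigs with an exact p = 0.03125. NGFR at the edge was -0.51 ± 0.52 (SD, n = 6, exact p = 0.0938). MBP was -0.27 ± 0.27 in the center and -0.37 ± 0.31 at the edge (SD, n = 6, exact p = 0.0938 and 0.0625), lower in 5 of 6 pigs in each.

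**Figure D5:**
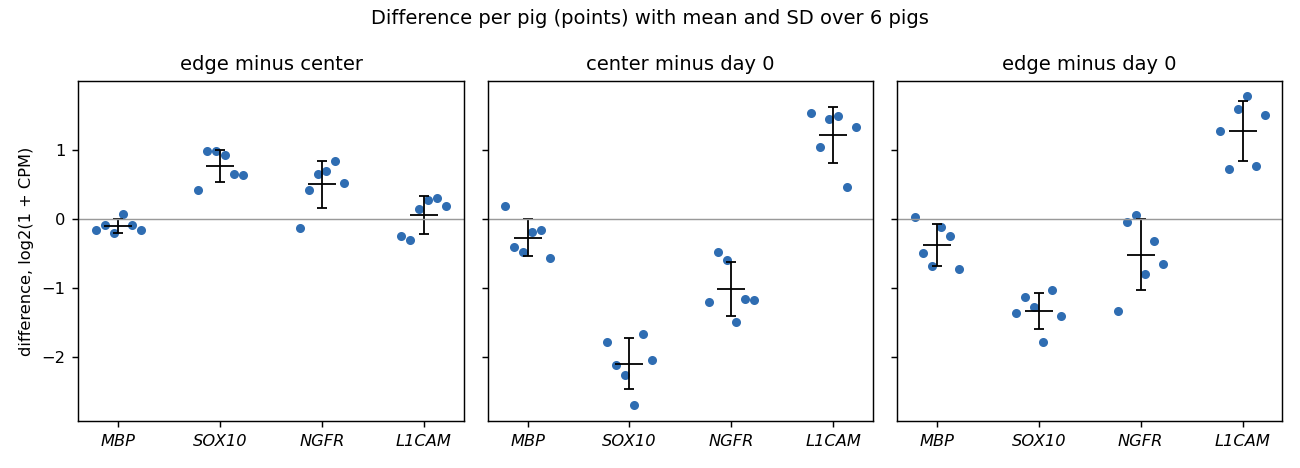
Difference in log2(1 + CPM) for each of 6 pigs (points) with the mean (wide mark) and SD (bars), for edge minus center, center minus day 0 and edge minus day 0. All 6 points of SOX10 lie above 0 on the left and below 0 in the other panels, and all 6 of L1CAM lie above 0 against day 0.

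The 4 genes did not move as a group. Over the 29 state means NGFR and SOX10 had r = 0.64 and over 150 deviations 0.44, while MBP had -0.05 and -0.05 with SOX10 and 0.10 and -0.08 with NGFR. The state means most like those of SOX10 were those of CYP27A1, CCDC149, ATP8A2, RGS7 and ID4, and the deviations those of ALDH1A1, EPHX2, SLC44A3, HSD3B and CYP4B1. For NGFR they were MARC2, OXR1, HS6ST1, HOOK2 and METTL24, and ALS, BCAM, PCYOX1, AKT2 and IDS. For L1CAM they were PCDHGC5, TXNDC5, AFAP1L1, KCNK12 and AFAP1, and RIMS4, PCDHGC5, HYAL1, KIF26A and FBLIM1. PCDHGC5, a clustered protocadherin, was the only gene in both groups for L1CAM, and none was in both for SOX10 and NGFR.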

How the data were processed

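RNA of 150 skin samples was poly-A enriched and sequenced as paired reads by a provider for the authors, who filtered the reads for adapters, undetermined bases and poor quality. The aligner, counter, strand setting and genome build are not given in the sources used here. The authors deposited whole-number read counts per gene, not normalized, and FPKM values, which were used in an alternative. Total counts ran from 13133379 to 24895572 per sample. Samples were grouped by the day and location in the labels. CPM was computed from library totals.

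Edge and center were compared within each day, and states with day 0 and late with early days in 1 fit of all samples, by edgeR 4.0.16 quasi-likelihood tests in R 4.3.3 (TMM, minimum count 10, minimum total 15, limma 3.58.1) with a threshold of 0.05 on Benjamini-Hochberg adjusted p over all genes tested. DESeq2 1.42.0 was an alternative. Exact tests ran over all changes of sign in Python 3.11.15 with numpy 2.4.6, beside pandas 2.3.3 and matplotlib 3.10.9. Tests were checked on simulated data. Wounds of 1 pig are not independent animals, so that p-values over wounds measure in part the spread within pigs.

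Edge and center samples come from the same wound in the labels. Over 14081 genes their deviations correlated with a mean r of 0.270 and were positive in 64 of 72 wounds, above 0.1 in 58. Blocked fits used the wound or the animal. Lists gave 178 of 196 symbols. Some list genes are counted but not reported by name here. Named were the 5 symbols, up to 4 of the most abundant genes of each list, and the 5 genes most like each member at a mean of at least 1 CPM, by r over state means of log2(1 + CPM) and over deviations. Outside this rule CDH19, CHL1, KRT18, MLANA, TYR, NEFM and TAC1 were also named. The members and lists were chosen with earlier results of these data known. Alternatives were the block, DESeq2, no filter, no TMM, other samples in the fit, summed wounds, pigs or wounds left out, samples apart or with muscle left out, a pseudocount of 0.5, FPKM and TMM sizes.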

Additional observations from a re-analysis of the deposited data

Results flagged for a closer look

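Of 84 groups of 6 samples, 3 held a sample whose gap to its nearest neighbour exceeded 0.625 of the range of the group on the log2(1 + CPM) scale, where chance gives about 1 in 20, or 4.2. For MBP in the day 13 center it was the lowest sample, wound C of pig 1326, at 5.58 (46.7 CPM against 82.7 to 102 CPM in the others). For MBP at the day 13 edge it was the highest sample, wound J of pig 1327, at 6.96 (123 CPM against 43.9 to 58.6 CPM). For SOX10 at the day 5 edge it was the highest sample, wound B of pig 1325, at 3.46 (9.97 CPM against 1.77 to 3.36 CPM). None of these samples was among those apart from their replicates or with muscle transcripts.

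The difference between edge and center changed for NGFR from early to late days by 2.54 on the log2 scale, past the threshold of its own edgeR test. NGFR was higher in the center in every wound on day 1 and at the edge in every wound on 6 days (7, 9, 11, 13, 15 and 16), and the difference between these single days was not tested. L1CAM was higher in the center in every wound on 3 days (15, 19 and 21) and at the edge in every wound on day 9, and this difference was not tested.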

How the results depend on the processing

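No result reversed its direction, and of 1045 values of 75 called single results under the alternatives, 951 kept their call and 94 lost it. With only the states compared in the fit, 33 of 56 tests against day 0 passed at the edge (22 lower), in place of 17 of 70 (7 lower), and on the FPKM scale MBP at the edge minus day 0 over pigs was -0.35 (exact p = 0.03125). With the replicate block, 14 tests passed between edge and center, 35 in the center and 17 at the edge against day 0, 4 and 2 late against early, and 1 for the change of the difference, and it changed no other call than those named. DESeq2 called 17 of 81 tests between edge and center, S100B rows included, against 12 of 56. When wounds were left out in turn, 9 to 12 tests passed between edge and center. When pigs were left out, 32 to 36 passed in the center and 13 to 17 at the edge against day 0, 3 to 4 and 2 to 3 late against early, and 1 for the change of the difference.

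Over 5 pigs the smallest possible exact p is 0.0625, so that these give values only. Edge minus center ranged from 0.72 to 0.83 for SOX10, 0.43 to 0.63 for NGFR, -0.14 to -0.09 for MBP and 0.01 to 0.13 for L1CAM. Center minus day 0 ranged from -2.17 to -1.97, -1.12 to -0.92, -0.36 to -0.21 and 1.15 to 1.36 in the same order, and edge minus day 0 from -1.39 to -1.24, -0.63 to -0.35, -0.45 to -0.30 and 1.17 to 1.38. Without TMM the median of all genes shifted by up to -0.34. Depth limited S100B in every state and SOX10 in the wound, where single samples of days 4, 6, 9 and 11 held 0 counts.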
